A study of Homo sapiens with 12 samples.

Results

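The genes described here are the neurotrophin receptor gene NGFR and 6 genes that act with it, 7 of the 23273 genes listed for each cell line. They were taken by symbol. NGFR encodes p75NTR, NTRK2 and NTRK3 encode the tyrosine kinase receptors TrkB and TrkC, and SORT1 encodes sortilin. BDNF encodes a neurotrophin, and NGFRAP1 and MAGED1 encode NADE and NRAGE, which bind the cytoplasmic part of p75NTR. Their RNA was measured in COLO858 and MMACSF, BRAF-mutant human melanoma cell lines, under DMSO, the solvent control, and under 0.2 μM vemurafenib, an inhibitor of the mutant BRAF kinase. Drug-treated cells were harvested at 24 h and 48 h, and each of the 6 groups had 2 replicates grown on separate plates. DMSO libraries carry no time in their labels, and their single pair served as the control of both drug times. Each line is a single line grown in its own medium and at its own seeding density, so line and culture conditions cannot be told apart. Nothing in the labels says that the plates were grown on separate days, and the p-values measure only the spread between these libraries, which may be technical.

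Neurotrophins are secreted growth factors made as longer precursors. Mature neurotrophins bind Trk receptors, which act through adaptor proteins on the MAPK and PI3K pathways. p75NTR, a death-domain receptor of the tumor necrosis factor receptor family without kinase activity, binds all mature neurotrophins weakly and their precursors strongly when sortilin is its co-receptor. p75NTR is a known surface marker of neural crest cells, the embryonic origin of melanocytes, and of poorly differentiated melanoma cells.

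Expression is given as FPKM, read fragments per kilobase of transcript relative to all mapped fragments, so levels of different genes can be set side by side within a line. The values of the lines come in separate tables whose scaling to each other is not stated, so levels were not tested across lines. Read depth is not given. Tests used limma on log2(FPKM + 1). A gene was called when its p, adjusted by Benjamini-Hochberg over all genes tested, was under 0.01. Of the 7 genes, 5 were tested in COLO858 and 5 in MMACSF, since a gene had to average 1 FPKM or more in some group. NTRK2 and NTRK3 were not tested in COLO858, and NTRK3 and BDNF were not tested in MMACSF. A test of the difference between the responses of the lines included 6 of the genes, all except NTRK3.

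The libraries held the RNA of melanocytic cells. Of 8 melanocyte markers, 6 to 7 averaged 1 FPKM or more in the groups of COLO858 and 8 in those of MMACSF. MLANA, the melanocyte antigen MART-1, stayed at a mean of 0.432 to 0.693 FPKM in COLO858. The summed level of the 8 markers in COLO858 was 702 and 717 FPKM under DMSO and 3922 to 4158 FPKM in drug. The highest of them in drug was DCT, at a mean of 267 FPKM under DMSO, 2915 FPKM at 24 h, and 2150 FPKM at 48 h. From DMSO to 48 h MITF went from 67.7 to 67.3 FPKM and TYR from 0.537 to 0.319 FPKM, so the markers did not all move together. In MMACSF the summed level was 11159 and 11373 FPKM under DMSO and 15589 to 17555 FPKM in drug. There PMEL was the highest, at a mean of 7944 FPKM under DMSO and 11552 FPKM at 48 h, while S100B went from 819 to 673 FPKM. The part of these shifts in the results was not tested. Of 5 blood and 5 endothelial markers, 0 reached 1 FPKM in any group, with summed levels of at most 1.08 and 0.794 FPKM. Of 5 fibroblast markers 2 to 3, and of 5 epithelial markers 2 to 3, had a mean of at least 1 FPKM. The summed fibroblast markers were at 8.29 and 11.3 FPKM under DMSO and 22.1 and 32.9 FPKM at 48 h in COLO858, and at 57.7 and 79.2 FPKM and 20.1 and 29.0 FPKM in MMACSF. Within this sum in COLO858, LUM went from a mean of 6.78 to 20.5 FPKM and COL3A1 from 0.165 to 6.56 FPKM. COL1A2 went the other way there, from 2.62 to 0.113 FPKM. The summed epithelial markers were at 72.2 and 62.8 FPKM under DMSO and at most 11.5 FPKM at 48 h in COLO858, and at 57.9 and 58.0 FPKM and 50.1 and 50.8 FPKM in MMACSF. Within this sum in MMACSF, KRT18 went from a mean of 31.2 to 11.5 FPKM and CDH1 from 23.9 to 36.3 FPKM. The part of the fibroblast and epithelial markers in the results was not tested. In a bulk sample, more cells with a transcript and more of it per cell cannot be told apart.

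The 7 genes spanned almost the whole range of expression. In the DMSO libraries of COLO858 the group means were 231 FPKM for NGFRAP1, 72.5 for MAGED1, 8.87 for SORT1, 4.42 for BDNF, 2.85 for NGFR, 0.106 for NTRK2, and 0.0147 for NTRK3. The order in MMACSF under DMSO was NGFRAP1 at 83.8 FPKM, MAGED1 at 50.3, SORT1 at 38.6, NGFR at 3.10, NTRK2 at 0.824, and BDNF at 0.244, with NTRK3 listed at 0. The p75NTR-binding adaptors were thus the highest of the set in both lines, and the receptors were low before drug.

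NGFR lies at chr17:47572655-47592370 on the plus strand of GRCh37, and its transcript changed sharply in COLO858 between 24 h and 48 h. In COLO858 it was at 2.89 and 2.82 FPKM under DMSO, at 1.96 and 1.36 FPKM after 24 h, and at 49.9 and 39.8 FPKM after 48 h. Both 48 h libraries stood far above the other 4, and both 24 h libraries stood below the DMSO pair. The rise over DMSO at 48 h was 3.56 on the log2(FPKM + 1) scale (SE 0.19, adjusted p = 0.000666), and the ratio of the mean FPKM was 15.7. By size of rise this was rank 55 of the 12696 genes tested. From 24 h to 48 h NGFR rose by 4.11 (SE 0.19, adjusted p = 0.00197), rank 22 of 12696. The difference of 24 h from DMSO was -0.54 (SE 0.19, adjusted p = 0.0936), which did not pass. At 48 h in COLO858, NGFR was the single call among the 5 genes tested, while 9.47% of all genes tested were called. It was also the single call between 24 h and 48 h, where the share over all genes was 1.38%. Without replicate 2 of DMSO the 48 h difference was 3.55 and its adjusted p 0.0101, which just misses the threshold. The rise from 24 h to 48 h lost its call without replicate 2 of the 24 h libraries, at 3.94 with an adjusted p of 0.0109, and without replicate 1 of the 48 h libraries, at 3.95 with an adjusted p of 0.0121.

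In MMACSF NGFR was at 3.86 and 2.35 FPKM under DMSO. Its values were 0.529 and 0.357 FPKM at 24 h and 0.861 and 0.594 FPKM at 48 h. All 4 drug libraries were below both DMSO libraries and below 1 FPKM. The differences from DMSO were -1.49 at 24 h (SE 0.23, adjusted p = 0.0129) and -1.23 at 48 h (SE 0.23, adjusted p = 0.0177), neither past 0.01. The ratios of the mean FPKM to that of DMSO were 0.143 and 0.234. NGFR was tested in MMACSF through its DMSO mean of 3.10 FPKM alone, so these tests depend on that group. Between 24 h and 48 h the difference was 0.26 with a 95% confidence interval of -0.32 to 0.84 (adjusted p = 0.944). The order of group means was thus 48 h, DMSO, 24 h in COLO858, and DMSO, 48 h, 24 h in MMACSF, and the neighbours that did not differ past the threshold were DMSO and 24 h in COLO858 and all of them in MMACSF.

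**Figure D1:**
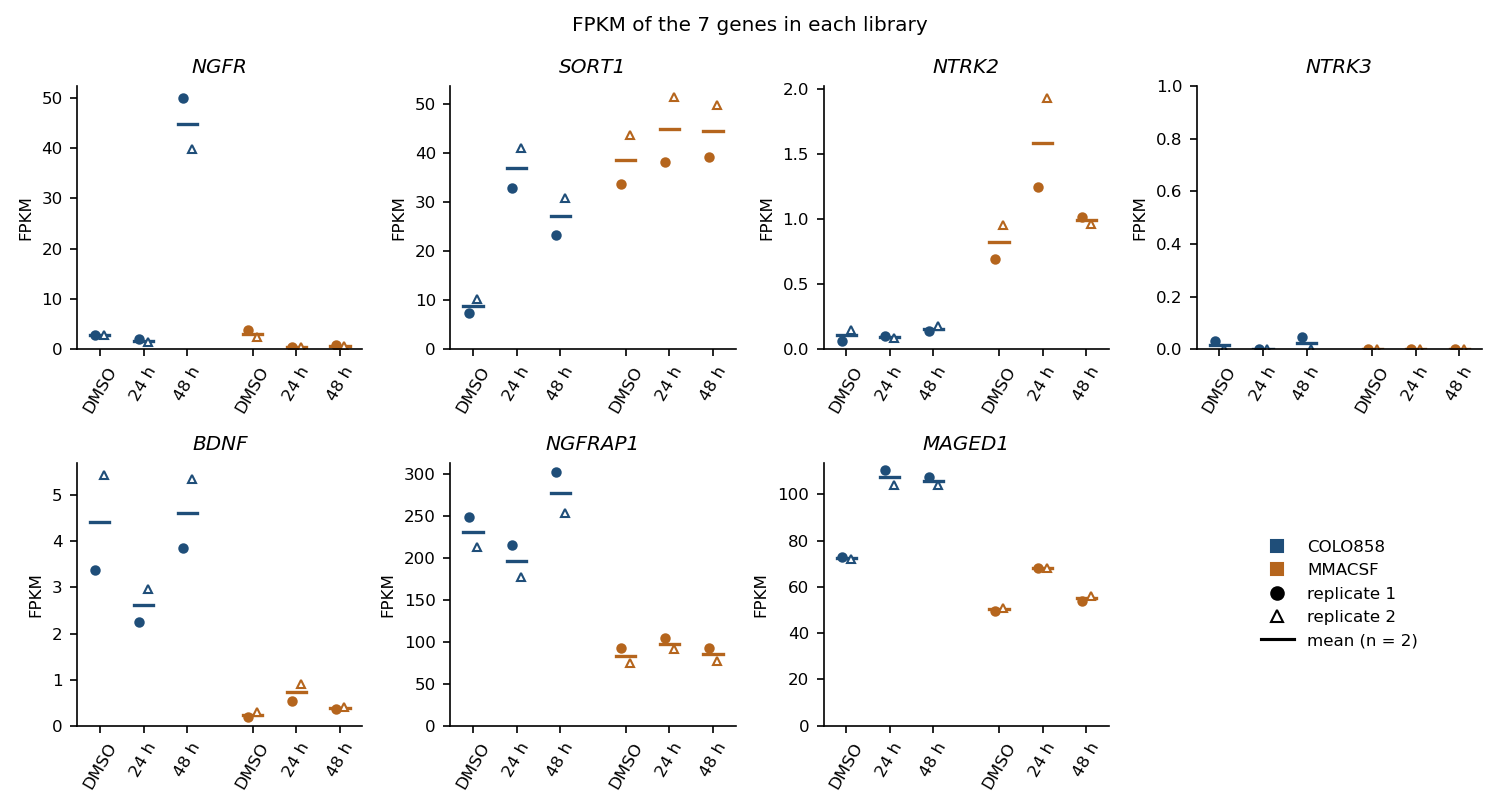
FPKM of each of the 7 genes in the 12 libraries, by cell line and treatment, with points for replicates, lines for the mean of 2, and a separate linear axis for each gene. NGFR stands at 49.9 and 39.8 FPKM in COLO858 at 48 h and at or below 3.86 FPKM in every other library, and SORT1 is at least 23.3 FPKM in the drug libraries of COLO858 against at most 10.3 FPKM under DMSO.

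NTRK2 and NTRK3, the genes of kinases that transmit the survival signal of neurotrophins, remained low in both lines. NTRK2 lies at chr9:87283290-87710666 on the plus strand and NTRK3 at chr15:88402982-88800022 on the minus strand of GRCh37. NTRK2 was between 0.0617 and 0.177 FPKM in the 6 libraries of COLO858. In MMACSF it was at 0.692 and 0.955 FPKM under DMSO, 1.25 and 1.93 FPKM at 24 h, and 1.02 and 0.966 FPKM at 48 h. The 24 h libraries of MMACSF were the highest, and those of 48 h stood just above DMSO. The differences in MMACSF were 0.50 at 24 h (SE 0.19, adjusted p = 0.133) and 0.13 at 48 h (SE 0.19, adjusted p = 0.659). NTRK2 was tested there only because its 24 h mean, 1.59 FPKM, passed the minimum. The test of the 24 h difference therefore depends on the group in which NTRK2 was highest. NTRK3 was listed at 0 in all 6 libraries of MMACSF and in 4 of 6 in COLO858, where the remaining values were 0.0295 FPKM under DMSO and 0.0451 FPKM at 48 h. Over NGFR, NTRK2, and NTRK3 and the 6 groups, NGFR in COLO858 at 48 h was the single group mean above 3.10 FPKM.

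SORT1 lies at chr1:109852190-109940540 on the minus strand of GRCh37. In COLO858 its level was higher in drug at 24 h already, at 7.47 and 10.3 FPKM under DMSO, 32.9 and 41.1 FPKM at 24 h, and 23.3 and 30.9 FPKM at 48 h. Every drug library of COLO858 was above both DMSO libraries. The rise at 24 h was 1.95 (SE 0.23, adjusted p = 0.00487), with a ratio of means of 4.17. SORT1 was the single call among the 5 genes tested at 24 h, where 9.82% of all genes were called. Without each of the 4 libraries in turn the rise was 1.75 to 2.16 and its adjusted p 0.0219 to 0.0362, with a single library in one group whose spread is taken from the other groups. Over all genes such fits called 0.898% to 1.21%. At 48 h the difference was 1.51 (SE 0.23, adjusted p = 0.0103), which missed the threshold narrowly. It passed after rescaling the libraries by median ratios, at 1.53 with an adjusted p of 0.00468. The difference between 48 h and 24 h was -0.44 with an interval of -1.03 to 0.15 (adjusted p = 0.380).

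In MMACSF the SORT1 level under DMSO was already 33.6 and 43.6 FPKM. It was 38.3 and 51.5 FPKM at 24 h and 39.2 and 49.8 FPKM at 48 h, and the 3 groups overlapped. The differences from DMSO were 0.21 at 24 h (interval -0.35 to 0.76, adjusted p = 0.545) and 0.20 at 48 h (interval -0.35 to 0.76, adjusted p = 0.543). The order of means was 24 h, 48 h, DMSO in both lines, with 24 h and DMSO in COLO858 as the single pair past the threshold.

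BDNF, at chr11:27676440-27743605 on the minus strand of GRCh37, encodes the ligand of TrkB. In COLO858 it was at 3.38 and 5.45 FPKM under DMSO, 2.26 and 2.97 FPKM at 24 h, and 3.85 and 5.36 FPKM at 48 h. The 24 h libraries were the lowest, and the 48 h values lay within the range of DMSO. The differences from DMSO were -0.56 at 24 h (SE 0.26, adjusted p = 0.172) and 0.06 at 48 h (SE 0.26, adjusted p = 0.885). From 24 h to 48 h the difference was 0.63 with an interval of -0.03 to 1.28 (adjusted p = 0.271). In MMACSF BDNF was at 0.198 and 0.289 FPKM under DMSO, 0.545 and 0.903 FPKM at 24 h, and 0.372 and 0.401 FPKM at 48 h. All 4 drug libraries of MMACSF were above its DMSO libraries, at levels too low to be tested.

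The neurotrophin genes NTF3 and NTF4 were close to 0 throughout. NTF4 was listed at 0 in MMACSF and was at 0 and 0.101 FPKM under DMSO, 0.514 and 0.537 FPKM at 24 h, and 0.376 and 0.220 FPKM at 48 h in COLO858. NTF3 was listed at 0 in all 12 libraries. In COLO858 at 48 h the mean level of NGFR was 44.8 FPKM and that of BDNF was 4.61 FPKM.

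NGFRAP1, also named BEX3, lies at chrX:102631323-102633092 on the plus strand of GRCh37, and its product NADE has been tied to cell death signaling by p75NTR. It was the most abundant of the 7, at the 95.5th to 98.8th percentile of the genes listed. In COLO858 it was at 249 and 213 FPKM under DMSO, 215 and 177 FPKM at 24 h, and 303 and 254 FPKM at 48 h. The order of means was that of NGFR, with 48 h highest and 24 h lowest, but the differences were small. They were -0.24 at 24 h (adjusted p = 0.348), 0.27 at 48 h (adjusted p = 0.301), and 0.50 from 24 h to 48 h (SE 0.17, adjusted p = 0.184). In MMACSF NGFRAP1 was at 92.6 and 74.9 FPKM under DMSO, 105 and 91.3 FPKM at 24 h, and 93.3 and 76.8 FPKM at 48 h. Its differences from DMSO there were 0.23 at 24 h (interval -0.19 to 0.65) and 0.02 at 48 h (interval -0.40 to 0.45).

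MAGED1 lies at chrX:51546103-51645450 on the plus strand of GRCh37, and its product NRAGE is a MAGE family protein that binds p75NTR near the membrane. Its standard errors were the smallest among the members tested. In COLO858 it was at 73.1 and 72.0 FPKM under DMSO, 111 and 104 FPKM at 24 h, and 107 and 104 FPKM at 48 h. All 4 drug libraries were above both DMSO libraries by a like amount, with differences of 0.56 at 24 h (SE 0.11, adjusted p = 0.0221) and 0.54 at 48 h (SE 0.11, adjusted p = 0.0251). In MMACSF it was at 49.8 and 50.9 FPKM under DMSO, 68.1 and 68.3 FPKM at 24 h, and 53.9 and 56.3 FPKM at 48 h. There the 24 h pair was the highest and the 48 h pair lay between, with differences from DMSO of 0.43 at 24 h (SE 0.10, adjusted p = 0.0388) and 0.13 at 48 h (SE 0.10, adjusted p = 0.400). None of these passed 0.01.

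NGFR, SORT1, NGFRAP1, and MAGED1 were tested in both lines, and among these 4 the changes of SORT1 and MAGED1 in drug were the most alike. Pearson's r of their log2(FPKM + 1) less the DMSO mean of the line was 0.809 over the 12 libraries, which share lines and treatments. For NGFR the same measure was 0.424 with SORT1, 0.378 with NGFRAP1, and 0.302 with MAGED1. For SORT1 with NGFRAP1 it was -0.324. Of the promoter windows that RefSeq annotation on GRCh38.p14 gives for the members, 2 belong to SORT1 and 2 to MAGED1. The 250 bases before one start of each are shown, read 5′ to 3′ on the strand of the gene, because the values of these genes were the most alike among the 4. The SORT1 window is chr1:109397919-109398168 on the minus strand and the MAGED1 window is chrX:51893373-51893622 on the plus strand. Capitals mark GGGCGG, the GC box, and in MAGED1 also CATGTG, an E-box of the type that MITF binds, which lies on the opposite strand and so reads CACATG here.
SORT1: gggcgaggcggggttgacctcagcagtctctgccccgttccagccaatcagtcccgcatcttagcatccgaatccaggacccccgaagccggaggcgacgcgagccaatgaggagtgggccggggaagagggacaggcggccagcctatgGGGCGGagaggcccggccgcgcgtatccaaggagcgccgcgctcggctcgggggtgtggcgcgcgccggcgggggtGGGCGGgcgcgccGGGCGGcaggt
MAGED1: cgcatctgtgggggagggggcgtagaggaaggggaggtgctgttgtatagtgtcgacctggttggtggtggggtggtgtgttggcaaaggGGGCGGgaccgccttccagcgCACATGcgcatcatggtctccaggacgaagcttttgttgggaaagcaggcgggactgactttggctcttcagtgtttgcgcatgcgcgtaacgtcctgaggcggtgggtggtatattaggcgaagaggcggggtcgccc
The SORT1 window holds 3 GC boxes on the strand of the gene, which begin 100, 24, and 11 bases before the start. The MAGED1 window holds a GC box that begins 160 bases before the start and the E-box that begins 139 bases before it. Over 35116 such windows of all genes, searched on both strands, 42.6% hold GGGCGG and 9.42% hold CATGTG. The matches shown do not overlap. TGANTCA, bound by AP-1, is in 6.57% of all windows, TGACGTCA, the cyclic AMP response element, in 1.65%, and GGAATG, bound by TEAD factors, in 11.9%. Neither TGANTCA nor TGACGTCA was in a window of the members, and GGAATG was in 1 of the 4 windows of NTRK2. GGGCGG was also in windows of NTRK2, NTRK3, BDNF, and NGFRAP1, and CATGTG in a window of NTRK2 and a window of BDNF. The motifs marked are thus not particular to SORT1 and MAGED1. The other starts of SORT1 and MAGED1 held none of the motifs. No window of NGFR was examined.

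**Figure D2:**
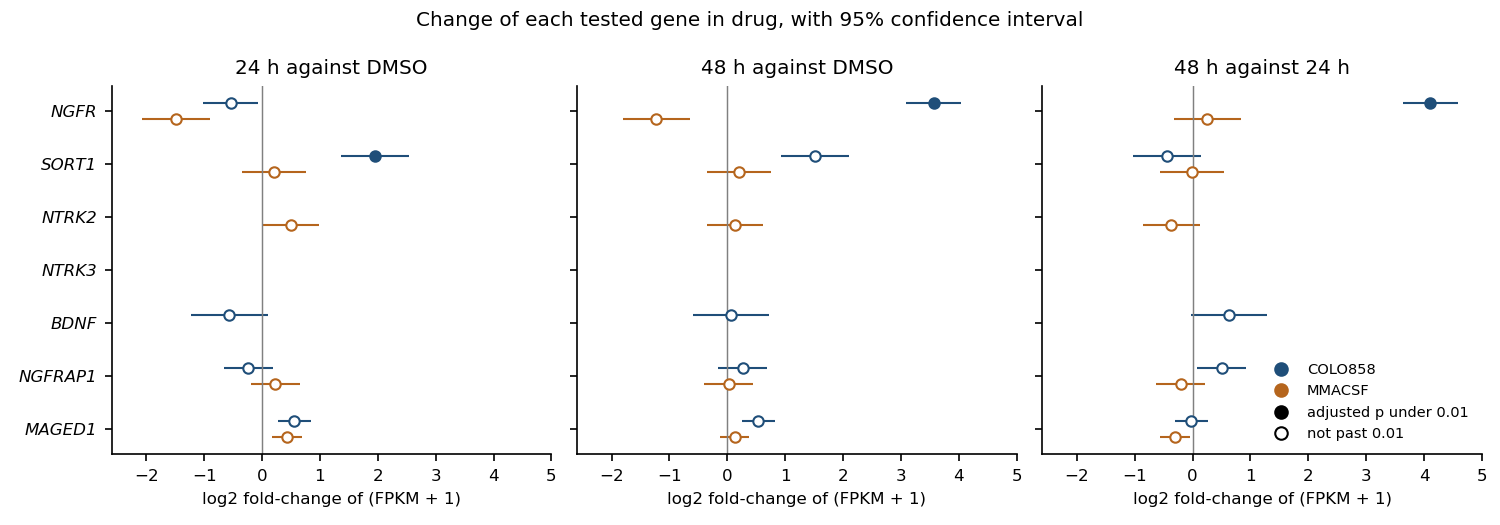
Log2 fold-change of (FPKM + 1) with its 95% confidence interval for each tested gene in 3 comparisons, by cell line, with filled points for an adjusted p under 0.01. NGFR in COLO858 lies at 3.56 at 48 h and 4.11 between 24 h and 48 h, SORT1 in COLO858 at 1.95 at 24 h, and no point of MMACSF is filled.

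Over the members tested in MMACSF, 0 of 5 were called by limma at 24 h, 0 at 48 h, and 0 between the times. The shares of all genes called there were 5.83%, 8.83%, and 0.222%. At an unadjusted p under 0.05 the counts were 3, 1, and 1, beside 36%, 38.9%, and 6.98% of all genes. The 3 include NTRK2, which entered the test through its 24 h mean alone. The median difference of the 5 tested genes from DMSO was 0.23 at 24 h and 0.13 at 48 h in MMACSF, beside 0.07 and 0.06 over all genes. In COLO858 it was -0.24 and 0.54, beside 0.06 and -0.01.

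The responses of the lines were compared as an interaction over the 12 libraries. For NGFR the response at 48 h was higher in COLO858 by 4.79 (SE 0.30, adjusted p = 3.98e-05), and the change from 24 h to 48 h by 3.85 (SE 0.30, adjusted p = 0.000272). At 24 h its difference between the lines was 0.94 (SE 0.30, adjusted p = 0.0974). These were the single calls among the 6 genes tested, at 48 h and for the change between times, while 7.48% and 2.96% of all genes were called. At 24 h 0 of 6 members were called by limma, and 3.71% of all genes were called. Of the members 4 were at an unadjusted p under 0.05, beside 21.2% of all genes. The response of SORT1 was higher in COLO858 by 1.74 at 24 h (interval 0.96 to 2.53, adjusted p = 0.0169) and by 1.31 at 48 h (interval 0.53 to 2.09, adjusted p = 0.0349), short of the threshold at both times. For MAGED1 the difference at 48 h was 0.41 (SE 0.12, adjusted p = 0.0477). BDNF differed by -1.03 at 24 h (SE 0.31, adjusted p = 0.0847) and by -0.09 at 48 h (interval -0.81 to 0.62). NGFRAP1 differed most in the change from 24 h to 48 h, by 0.71 (SE 0.24, adjusted p = 0.161), and NTRK2 at 24 h, by -0.51 (SE 0.20, adjusted p = 0.183). BDNF averaged at most 0.724 FPKM in MMACSF and NTRK2 at most 0.158 FPKM in COLO858. The differences of these genes between the lines thus rest in part on a line under the minimum level. NTRK2 entered the comparison through its 24 h mean in MMACSF alone.

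Other genes of the pathway were grouped by role in lists that hold 52 genes beside the members. In COLO858 44 of them were tested, of which 3 were called at 24 h, 4 at 48 h, and 1 between the times. These are 6.82%, 9.09%, and 2.27% of those tested, beside 9.82%, 9.47%, and 1.38% over all genes. In MMACSF 42 were tested, of which 5 were called at 24 h, 6 at 48 h, and 0 between the times by limma. Between the times 1 was at an unadjusted p under 0.05, beside 6.98% of all genes. The shares called at 24 h and 48 h were 11.9% and 14.3%, beside 5.83% and 8.83% over all genes. The median of the tested genes at 48 h was 0.07 in COLO858 and 0.15 in MMACSF, beside -0.01 and 0.06 over all genes.

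Among 9 genes of the sortilin family and co-receptors of p75NTR, 7 were tested in each line. RTN4R, the Nogo receptor that signals in axon inhibition with p75NTR as its partner, fell in COLO858 at both times. It was at 5.17 and 5.15 FPKM under DMSO, 1.22 and 0.748 FPKM at 24 h, and 0.326 and 0.510 FPKM at 48 h. It fell by 1.64 at 24 h (SE 0.17, adjusted p = 0.00364) and by 2.12 at 48 h (SE 0.17, adjusted p = 0.00196). In MMACSF RTN4R was at 2.65 and 1.50 FPKM under DMSO and 2.61 and 1.46 FPKM at 48 h, and the response at 48 h was lower in COLO858 by 2.10 (adjusted p = 0.00400). SORCS1, a relative of sortilin named after its values were seen, also responded differently at 48 h, by -1.46 (SE 0.25, adjusted p = 0.00568). Its mean went from 15.3 to 12.7 FPKM in COLO858 and from 3.45 to 9.22 FPKM in MMACSF.

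Of 6 genes of precursor processing, 5 were tested. PLAT encodes tissue plasminogen activator, which makes plasmin, a protease that can cut proBDNF outside the cell. In COLO858 PLAT was at 30.4 and 32.2 FPKM under DMSO, 93.7 and 94.8 FPKM at 24 h, and 325 and 333 FPKM at 48 h. It rose by 1.56 at 24 h (adjusted p = 0.00138) and by 3.35 at 48 h (SE 0.11, adjusted p = 0.000262). PLAT in MMACSF fell from 379 and 386 FPKM to 223 and 213 FPKM at 24 h and 237 and 236 FPKM at 48 h, by 0.81 (adjusted p = 0.00670) and 0.69 (adjusted p = 0.00816). The responses differed by 4.04 at 48 h (adjusted p = 1.09e-06). PLG, the gene of plasminogen, was under the level tested in both lines. PCSK5, a proprotein convertase, was at 4.02 and 3.60 FPKM under DMSO in MMACSF and at 17.1 and 14.7 FPKM at 48 h, a rise of 1.81 (SE 0.15, adjusted p = 0.00184). Its response at 48 h was lower in COLO858 by 1.95 (adjusted p = 0.00108). PCSK6, another convertase, fell in MMACSF by 1.32 at 48 h (SE 0.14, adjusted p = 0.00398), from 11.7 and 10.5 FPKM to 4.03 and 3.66 FPKM. In COLO858 it was at 5.38 and 3.95 FPKM under DMSO and 1.92 and 1.99 FPKM at 48 h (adjusted p = 0.0189).

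Of 8 genes whose products cut p75NTR, ADAM10, ADAM17, and the subunits of γ-secretase, all were tested, and limma called 0 in any comparison. Over all genes the share called ran from 0.222% to 9.82% between the comparisons. In COLO858 at 48 h the differences of the 8 genes ran from -0.94 to 0.68. There 4 of 8 were at an unadjusted p under 0.05, beside 39.3% of all genes. Of 12 adaptors of p75NTR, NGFRAP1 and MAGED1 included, limma called 0 of 12 at 48 h in COLO858, beside 9.47% of all genes. There 4 of 12 were at an unadjusted p under 0.05, beside 39.3% of all genes. In MMACSF 1 of 11 was called at 48 h, which is 9.09% beside 8.83% over all genes. This was IRAK1, a kinase that p75NTR recruits to activate NF-κB, which fell by 1.42 at 24 h (adjusted p = 0.00800) and by 1.20 at 48 h (adjusted p = 0.00996). Its level in MMACSF was 25.5 and 23.3 FPKM under DMSO and 9.88 and 10.2 FPKM at 48 h. IRAK1 in COLO858 was at 74.0 and 62.0 FPKM under DMSO and 44.2 and 38.8 FPKM at 48 h, a difference of -0.70 (adjusted p = 0.0395). Of 16 adaptors of Trk and other receptor kinases, 2 of 15 tested were called at 48 h in COLO858 and 2 of 14 in MMACSF, which is 13.3% and 14.3% beside 9.47% and 8.83% over all genes. SHC4, an SHC family adaptor, rose in both lines at both times, from 2.85 and 4.19 FPKM to 9.88 and 12.2 FPKM at 48 h in COLO858 (1.42, adjusted p = 0.00912) and from 7.74 and 10.4 FPKM to 20.7 and 25.4 FPKM in MMACSF (1.26, adjusted p = 0.00867). GAB1, a docking protein, rose in COLO858 at 48 h by 1.61 (adjusted p = 0.00743), and its difference in MMACSF was 0.91 (adjusted p = 0.0302). RAPGEF1, an exchange factor for RAP1, rose in MMACSF at 48 h by 0.83 (adjusted p = 0.00790), and its difference in COLO858 was 0.50 (adjusted p = 0.0646). The responses of IRAK1, GAB1, and RAPGEF1 at 48 h were not shown to differ between the lines (adjusted p = 0.244, 0.181, and 0.240). SHC1, named after its values were seen, was the single Trk adaptor whose response at 48 h differed between the lines (0.77, adjusted p = 0.00785). Apart from PLAT in COLO858 at 48 h, each of these calls against DMSO was lost without any 1 of its 4 libraries, where a single library is left in a group. Of all genes tested in COLO858 at 48 h, 137 to 151 were called without 1 library, against 1202 with all. With no minimum level, SHC4 at 48 h in both lines and at 24 h in COLO858, GAB1 in COLO858, and IRAK1 in MMACSF at both times also lost their calls (adjusted p = 0.0128 to 0.0155), and PLAT at 48 h in MMACSF just missed the threshold. Median-ratio rescaling ended those of IRAK1 (adjusted p = 0.0112) and RAPGEF1 (0.0118) at 48 h in MMACSF and of SHC1 (0.0277) between the lines. Without the trend the calls of IRAK1, SHC4, RAPGEF1, and PLAT at 48 h in MMACSF, of PLAT at 24 h, and of SHC1 between the lines were lost (adjusted p = 0.0101 to 0.0144). Of the differences between the responses, those of PLAT and PCSK5 were called without each of the 8 libraries in turn, while that of RTN4R was lost in 6 of 8 cases and those of SORCS1 and SHC1 in 8 of 8.

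**Figure D3:**
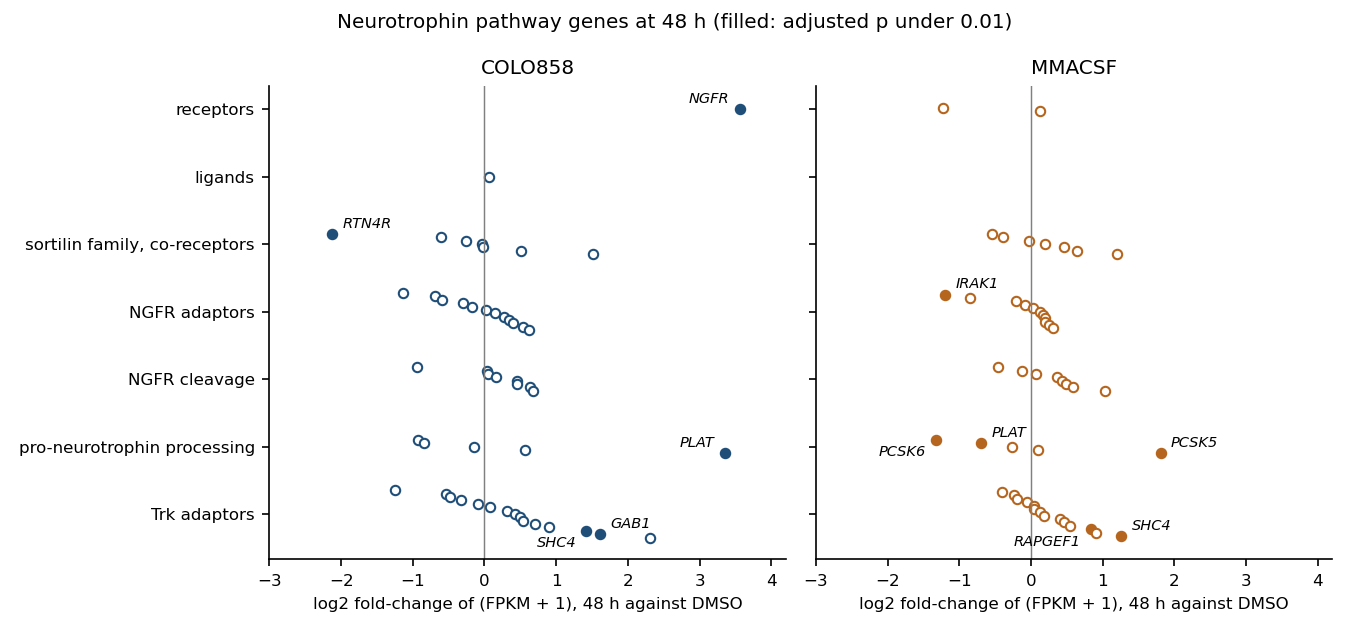
Log2 fold-change of (FPKM + 1) at 48 h against DMSO for each tested gene of the neurotrophin pathway, by role in rows and by cell line in panels, with filled and named points for an adjusted p under 0.01. NGFR at 3.56 and PLAT at 3.35 stand farthest to the right in COLO858 and RTN4R at -2.12 farthest to the left, while most genes of either line are unfilled.

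The genes most like NGFR over the 12 libraries, by Pearson's r of log2(FPKM + 1) less the DMSO mean of the line, were sought among 11699 other genes tested in both lines. They were EXT1 (r = 0.984), which encodes a heparan sulfate polymerase, PEA15 (0.983), a regulator of ERK localization, C16orf80 (0.982), MYL12A (0.975), a myosin regulatory light chain, and TMSB4X (0.969), which encodes the actin-binding thymosin β4. These values are a description, over libraries that share lines and treatments, and the highest values of NGFR come from the 2 libraries of 1 group. Since the genes were picked for their likeness to NGFR over these libraries, their own differences are given with no test. In COLO858 at 48 h the difference from DMSO was 1.72 for PEA15, 1.42 for TMSB4X, 1.06 for EXT1, 0.87 for C16orf80, and 0.54 for MYL12A. All 5 were smaller than that of NGFR, and the differences of the 5 genes from DMSO in MMACSF lay between -0.95 and -0.20.

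For SORT1 the most similar genes were ASAH1 (r = 0.991), ICK (0.986), and LYST (0.985). ASAH1, a lysosomal ceramidase, differed from DMSO by 1.71 in COLO858 at 24 h, given with no test for the same reason. The genes most like MAGED1 were ZMYND8 (0.973), USP22 (0.967), and SLC25A20 (0.966), and those most like NGFRAP1 were RRAS (0.952), SMTN (0.918), and CALM3 (0.909).

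**Figure D4:**
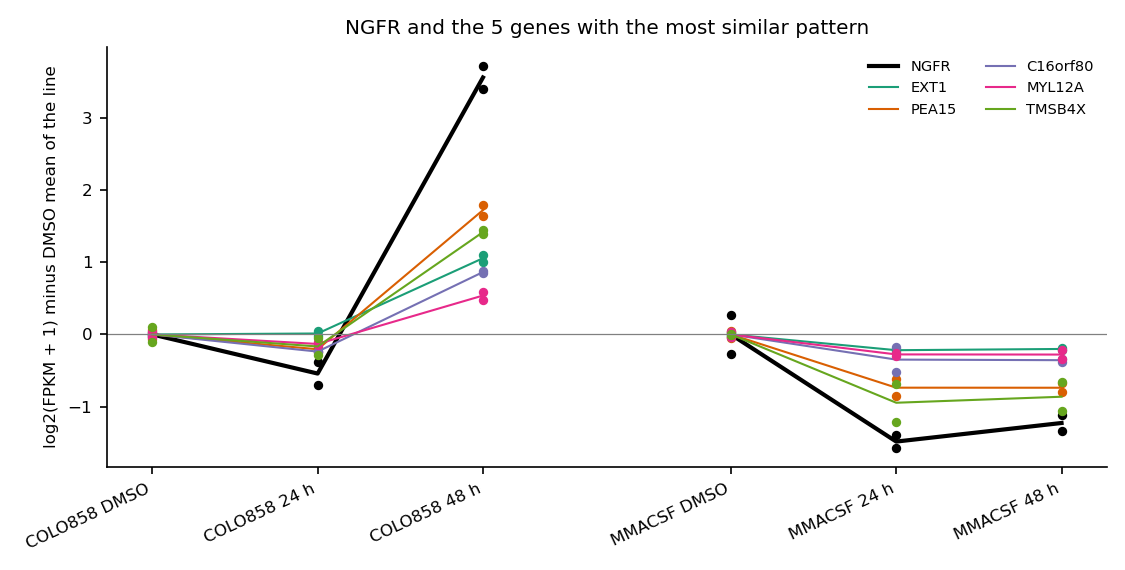
Log2(FPKM + 1) less the DMSO mean of the line for NGFR and the 5 genes most like it, with points for libraries and lines through the means of 2. All 6 genes are highest in COLO858 at 48 h, where NGFR is at 3.56 and the others are between 0.54 and 1.72, and all are below their DMSO mean in the drug libraries of MMACSF.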

How the data were processed

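RNA of 12 libraries, 2 for each of 6 groups, was sequenced by the authors after stranded mRNA library preparation with added ERCC RNA. Reads were mapped to hg19 with TopHat and quantified with Cuffdiff. The FPKM values used here are those the authors deposited, with 1 table per cell line and 23273 genes in each. The file names call them normalized counts. The gene annotation, the strand setting, and the scaling of the libraries are not given in the sources used here. All columns of libraries were used, and 0 were left out. Depth is unknown. FPKM summed to between 670310 and 1013038 per library of COLO858 and between 726083 and 856083 per library of MMACSF. A single gene, MIR4461, made up 14.1% to 43.4% of the sum in COLO858 and 14.7% to 33% in MMACSF.

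Each line was fitted with limma 3.58.1 in R 4.3.3, with its 3 groups as the terms of a linear model on log2(FPKM + 1) and a trend in the empirical Bayes moderation. A gene was tested if some group of the fit averaged 1 FPKM or more. Benjamini-Hochberg adjustment covered all genes tested, tests were two-sided, and the threshold was 0.01. Confidence intervals are at 95%. Responses of the lines were compared as an interaction in a model of 6 groups. Fold-changes are on the log2(FPKM + 1) scale, which understates the change of low genes. Gene positions follow the GRCh37 lift of GENCODE v44, and promoter windows are from RefSeq on GRCh38.p14.

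The members and the pathway lists were chosen with earlier results of these data known. Some items of the lists are not reported here. Named were the members, further ligands, list genes past the threshold against DMSO in either line, and the genes most like each of the 4 members tested in both lines. In simulated data, 174 of 200 genes with a log2 change of 2 were recovered for COLO858 at 48 h with 3 false calls over 12301 genes, and 151 of 200 for the interaction at 48 h with 7 false calls over 13235 genes. The simulation drew independent noise for each library, with no difference between replicate numbers and no other changed genes. Its figures therefore check the fit and do not give the error rates in the real libraries. Alternatives were a pseudocount of 0.1 FPKM, no minimum or one of 10 FPKM, a replicate block, median-ratio rescaling, no trend, only the groups compared, and leaving out each library in turn.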

Additional observations from a re-analysis of the deposited data

Results flagged for a closer look

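Among the 6 genes for which the responses of the lines could be compared, NGFR differed between COLO858 and MMACSF in the interaction test. Its response at 48 h was higher in COLO858 by 4.79 on the log2(FPKM + 1) scale (limma, adjusted p = 3.98e-05). The changes behind it were 3.56 in COLO858 and -1.23 in MMACSF. Its change from 24 h to 48 h was higher in COLO858 by 3.85 (limma, adjusted p = 0.000272), with changes of 4.11 and 0.26. Leaving out each of the 8 libraries in turn gave differences of 4.52 to 5.06 and of 3.69 to 4.01, and both passed the threshold each time.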

How the results depend on the processing

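Read depth is unknown, and 2 libraries per group limit the precision. The replicate numbers are shared by the groups, but the labels do not say what they mark, so the samples were not treated as paired. As a check, the correlation between libraries of one number, after subtracting group means, was 0.196 to 0.211 for COLO858 and 0.063 to 0.113 for MMACSF, and 75.7% and 68.0% of genes differed between the numbers in one direction in all 3 groups of a line, where unrelated numbers would give 25%. With the replicate block the members called numbered 4, 4, and 3 in COLO858 at 24 h, at 48 h, and between the times, 2 and 1 in MMACSF at 24 h and 48 h, and 4, 3, and 4 for the differences between lines at 24 h, at 48 h, and from 24 h to 48 h. The other pathway genes called with the block numbered 21, 23, and 10 in COLO858, 14 and 15 in MMACSF, and 8, 11, and 9 for the differences. Over all genes the block called 5719, 5549, and 2280 in COLO858, 3284 and 3790 in MMACSF, and 2396, 3434, and 1774 for the differences. NGFR then passed in MMACSF at 24 h (-1.49, adjusted p = 0.00407) and at 48 h (-1.23, adjusted p = 0.00546) and for the difference between lines at 24 h (0.94, adjusted p = 0.00920). In COLO858 MAGED1 (0.000843), NGFRAP1 (0.00643), and BDNF (0.00839) also passed at 24 h, SORT1 (0.000215), MAGED1 (0.000923), and NGFRAP1 (0.00463) at 48 h, and SORT1 (0.00657) and NGFRAP1 (0.00227) between the times, as did MAGED1 (0.00430) in MMACSF at 24 h. For the differences between lines SORT1, BDNF, and NGFRAP1 passed at 24 h and from 24 h to 48 h, and SORT1 and MAGED1 at 48 h (5.25e-05 to 0.00723).

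Against DMSO in COLO858, median-ratio rescaling called 2 members at 48 h and 5 pathway genes at 24 h. For the differences between lines it called 1 member at 24 h and 2 at 48 h. Of all genes, the rescaling called 10.5%, 11.9%, 4.39%, and 8.87% in that order. The main settings called 9.47%, 9.82%, 3.71%, and 7.48% there. A pseudocount of 0.1 called 2 members in COLO858 at 48 h, beside 9.32% of all genes. A minimum of 10 FPKM left 1 pathway gene at 24 h and 2 at 48 h in COLO858, beside 10.9% and 10.2% of all genes then tested. No minimum left 2 pathway genes in COLO858 at 48 h and 3 in MMACSF at each time. Of all genes then tested, 5.46% were called in COLO858 at 48 h, and 2.95% and 4.75% in MMACSF at 24 h and 48 h. Without the trend 2 pathway genes were left in MMACSF at 48 h, beside 7.91% of all genes. With only the groups compared, which leaves fewer samples for the spread, 2 pathway genes were left in COLO858 at 48 h and 0 between its times. Left in MMACSF were 0 and 2 at 24 h and 48 h, and for the difference at 48 h 3. Of all genes, this setting called 3.95%, 0.283%, 1.89%, 4.64%, and 4.85% in that order. The main settings called 9.47%, 1.38%, 5.83%, 8.83%, and 7.48%. Where no construction of the setting shows it, the cause was not tested.

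Leaving out each library in turn, with the lone library of a group taken to vary like the other groups, the share of all genes called was 0.898% to 1.21% in COLO858 against DMSO and 0.458% to 1.07% in MMACSF. Members called were 0 in COLO858 at 24 h, 0 to 1 at 48 h, and 0 to 1 between the times, 0 in MMACSF throughout, and for the differences between lines 0 at 24 h and 1 at both others. Pathway genes called were 0, 1, and 0 in COLO858, 0 in MMACSF throughout, and 2, 2 to 3, and 1 for the differences. NGFR ranged over -0.71 to -0.38, 3.41 to 3.72, and 3.94 to 4.27 in COLO858, over -1.75 to -1.22, -1.50 to -0.96, and 0.15 to 0.37 in MMACSF, and over 0.67 to 1.21, 4.52 to 5.06, and 3.69 to 4.01 for the differences. In COLO858 NGFR passed the threshold in 3 of 4 of these cases at 48 h and in 2 of 4 between the times. Values that changed sign belonged to differences that were not called. Median-ratio rescaling gave 0.0522 for MAGED1 between 24 h and 48 h in COLO858, -0.0262 for NGFRAP1 at 48 h in MMACSF, and 0.0121 for SORT1 between the times in MMACSF, and a pseudocount of 0.1 gave 0.10 for NTRK2 in the difference at 48 h. Leaving out 1 library gave ranges of -0.22 to 0.34 for BDNF in COLO858 at 48 h, -0.0663 to 0.0240 for MAGED1 between its times, and -0.0009 to 0.42 for SORT1 in MMACSF at 24 h. The ranges were -0.13 to 0.17 for NGFRAP1 in MMACSF at 48 h and -0.22 to 0.20 for SORT1 between its times. In the difference at 48 h they were -0.37 to 0.18 for BDNF and -0.17 to 0.04 for NTRK2. Of the other values of single genes, 629 stayed on their side of the threshold, 134 fell below it, and 21 passed it. Of the results on counts and NGFR, those not given here kept direction and side under the settings named.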

Other observations

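Some genes of the pathway lists had large differences that did not pass the threshold, and they are named here after their values were seen. SHC2, an adaptor of the SHC family, was at 7.18 and 5.05 FPKM under DMSO in COLO858, 20.5 and 10.6 FPKM at 24 h, and 43.3 and 26.3 FPKM at 48 h. Its difference at 48 h was 2.31 on the log2(FPKM + 1) scale (SE 0.39, limma, adjusted p = 0.0136), and it was listed at 0 in all 6 libraries of MMACSF. KIDINS220, a scaffold that joins Trk receptors and p75NTR, was higher at 24 h than under DMSO by 0.99 in COLO858 (adjusted p = 0.0184) and by 0.74 in MMACSF (adjusted p = 0.0358). PSEN2, a presenilin of γ-secretase, went from 19.4 and 16.4 FPKM to 9.19 and 8.43 FPKM at 48 h in COLO858 (adjusted p = 0.0106). APH1B, another subunit, went from 4.89 and 6.91 FPKM to 12.2 and 13.9 FPKM at 48 h in MMACSF (adjusted p = 0.0192) and from 3.60 and 4.13 FPKM to 3.43 and 4.75 FPKM in COLO858. BEX1, a relative of NGFRAP1, was at 3.95 and 1.95 FPKM under DMSO in COLO858 and at 0.684 and 0.796 FPKM at 48 h (adjusted p = 0.0325).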
